A study of Homo sapiens with 10 samples.

Results

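The inhibitor of DNA binding genes ID1, ID2, ID3 and ID4 were followed together with 6 genes of bone morphogenetic protein (BMP) signalling: the ligand genes BMP4 and BMP7, the feedback inhibitor genes SMAD6, SMAD7 and BAMBI, and the antagonist gene GREM1. These 10 genes were taken by symbol from a table of 46427 genes, and 9 of them held enough counts to be tested. The cells were ReNcell VM, an immortalised line of human neural progenitors, grown as neurospheres, which are floating balls of progenitor cells. Neurospheres formed over 4 days from 8000 cells per well, were moved onto laminin and were left to differentiate for 6 days in medium with N-2 supplement, with the substances renewed every 2 days. The 4 treated groups were labelled DEP, DProP, DPP and Mix, each at 100 µM, and the vehicle group received 0.1% DMSO, with 2 libraries per group and 6 neurospheres pooled in each library. DEP is diethyl phthalate, and the study set it beside straight-chain phthalates that differ from it in carbon number. DProP and DPP are called here by their labels, and no source used here gives the make-up of Mix. All groups came from 1 cell line. Nothing in the labels tells whether paired libraries were independent cultures, and p-values then cover only the spread within these pairs, which may be technical.

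BMPs are secreted ligands that bind paired receptors on the cell surface, which phosphorylate SMAD1, SMAD5 and SMAD9. These SMADs enter the nucleus with SMAD4 and switch on target genes, of which ID1, ID2 and ID3 are the classical examples and SMAD6, SMAD7 and BAMBI the negative feedback. ID proteins have a helix-loop-helix but no DNA-binding region, and they hold E proteins and proneural factors of the bHLH (basic helix-loop-helix) class away from DNA. In neural progenitors they are known for keeping cells undifferentiated, and BMP signalling for favouring astrocytes over neurons.

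Library totals ran from 57222381 to 72973100 counts. Levels are given as CPM, counts scaled to library size with TMM factors, which even out differences in library composition. Between groups, the 13 protein-coding genes of mitochondrial DNA took 0.0825% to 0.107% of counts in the treated libraries, against 0.0255% to 0.0343% in vehicle libraries. The nuclear RNA MALAT1 took 0.342% to 0.394% in treated libraries and 0.946% to 1.25% in vehicle libraries. Across 14821 protein-coding genes, the log2 fold change against vehicle correlated negatively with GC content (Spearman rho from -0.358 to -0.296, a description across genes, which share these libraries). The part of the mitochondrial and MALAT1 differences in the results was not tested. A correction for GC content and length was among the alternative runs, and some calls that it changed are given below. Microglia markers, which this line should lack, summed to at most 0.453 CPM in any library.

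ID1, ID3 and ID4 are shown with the 250 bases before their start, from RefSeq on GRCh38.p14. They were chosen because ID1 and ID3 on the one hand and ID4 on the other moved in opposite directions. ID2, called against vehicle under Mix alone, is not shown. Capitals mark matches to 3 motifs. The motif CAGAC, which SMADs bind, was searched on both strands, so that its reverse complement GTCTG also counts. The TATA box was searched as TATAAA and, on the other strand, as TTTATA. The CCAAT box was searched as CCAAT and, on the other strand, as ATTGG. A further motif without a match here, the GC-rich GGCGCC, which reads the same on both strands, is known to be bound by SMADs of the BMP branch. The windows are chr20:31605039-31605288 on the plus strand for ID1, chr1:23559502-23559751 on the minus strand for ID3 and chr6:19837120-19837369 on the plus strand for ID4, each written 5′ to 3′.
ID1: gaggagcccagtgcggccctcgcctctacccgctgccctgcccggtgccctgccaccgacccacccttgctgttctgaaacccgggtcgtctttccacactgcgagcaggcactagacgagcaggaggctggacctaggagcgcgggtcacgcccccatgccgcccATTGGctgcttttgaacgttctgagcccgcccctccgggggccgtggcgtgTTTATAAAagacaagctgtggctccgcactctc
ID3: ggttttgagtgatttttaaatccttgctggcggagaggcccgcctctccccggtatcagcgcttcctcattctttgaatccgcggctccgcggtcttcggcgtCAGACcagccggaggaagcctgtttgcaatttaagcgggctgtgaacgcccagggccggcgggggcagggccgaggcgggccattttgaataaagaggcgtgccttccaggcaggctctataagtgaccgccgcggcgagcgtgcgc
ID4: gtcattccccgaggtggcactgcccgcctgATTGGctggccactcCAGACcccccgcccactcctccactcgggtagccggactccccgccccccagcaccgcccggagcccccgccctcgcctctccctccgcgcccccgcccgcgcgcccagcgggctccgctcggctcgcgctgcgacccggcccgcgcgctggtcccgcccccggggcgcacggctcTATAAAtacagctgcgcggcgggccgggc
The ID1 window held 1 CCAAT box and 2 matches to the TATA box that overlap on opposite strands. The ID3 window held 1 CAGAC motif and no exact match to either box, and the ID4 window held 1 of each of the 3 motifs. Variants of the boxes were not searched. GGCGCC was in none of these 3 windows, and these letters say nothing of SMAD binding elsewhere. Of 35116 RefSeq promoter windows of the same length, 16.4% held GGCGCC, 38% CAGAC, 10.7% the TATA box and 32% the CCAAT box. At that share, the absence of GGCGCC from 3 windows is not unusual. Among the other genes followed, 1 window each of BAMBI (3 matches), GREM1 (2) and BMP4 (1) held GGCGCC. Promoter windows were matched for 9 of the 10 genes.

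ID1, on chromosome 20 (31605289 to 31606510), was higher in every treated group. The DEP libraries had 3.64 and 3.81 CPM, the DProP libraries 4.74 and 5.19, the DPP libraries 6.57 and 5.83, the Mix libraries 1.88 and 3.20, and the vehicle libraries 0.689 and 1.21. All 8 treated libraries lay above both vehicle libraries, and the Mix libraries lay below those of the 3 single compounds. The log2 fold change over vehicle was 1.98 ± 0.28 (SE) for DEP, with an adjusted p of 0.000675 in edgeR's quasi-likelihood test with Benjamini-Hochberg adjustment over all tested genes. By the same test it was 2.40 ± 0.28 for DProP (adjusted p = 0.000117), 2.72 ± 0.28 for DPP (3.2e-05) and 1.43 ± 0.28 for Mix (0.00516). These values rest on 111 counts in the vehicle libraries together, against 339 counts in the Mix libraries and 856 in the DPP libraries.

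ID3, on chromosome 1 (23557926 to 23559501) and, like ID1, a classical BMP target, rose under the 3 single compounds. DEP libraries had 5.19 and 6.35 CPM, DProP libraries 7.51 and 9.90, DPP libraries 7.11 and 7.81, Mix libraries 2.69 and 4.302, and vehicle libraries 3.15 and 2.56. The 6 libraries of single compounds lay above both vehicle libraries, whereas the lower Mix library lay between the vehicle libraries. The log2 fold change over vehicle was 1.01 ± 0.22 for DEP (edgeR adjusted p = 0.00798), 1.61 ± 0.22 for DProP (0.000366) and 1.38 ± 0.22 for DPP (0.00069). For Mix it was 0.29 ± 0.23 and did not pass (adjusted p = 0.41, 95% interval -0.21 to 0.79). The DEP call was lost without DEP library 2 (adjusted p = 0.0727) and without vehicle library 2 (0.0615). Cell cycle markers (7 genes, MKI67 and TOP2A among them) summed to 158.6 and 322.8 CPM in the DProP libraries, against 128.2 to 196.1 CPM in the other treated libraries and 146 to 148.9 CPM in vehicle, and their part in the ID3 values was not tested.

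**Figure D1:**
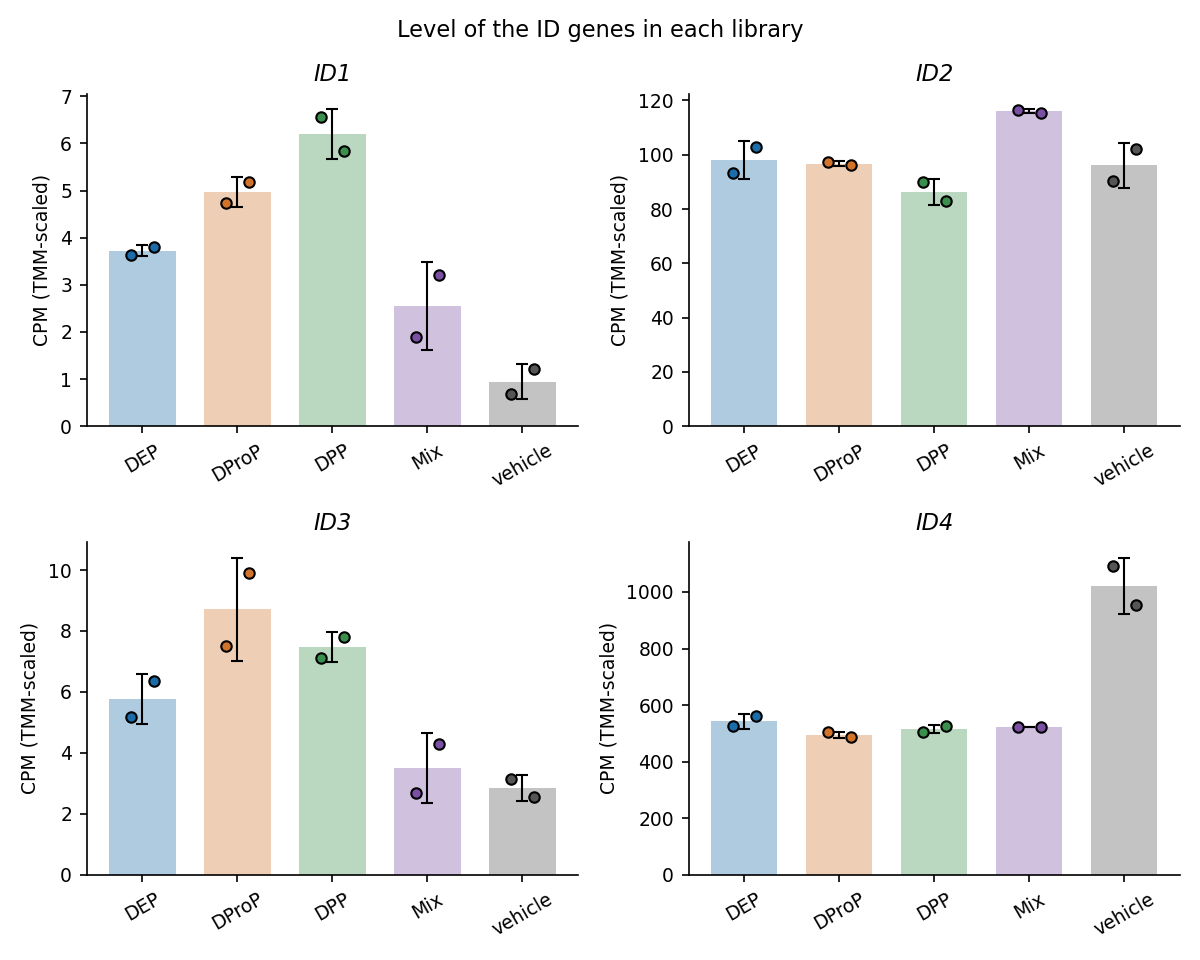
CPM (TMM-scaled, linear axes from 0) of ID1, ID2, ID3 and ID4 in each library, with bars for the group mean and error bars for the SD of 2 libraries. ID1 is lowest in vehicle (0.948 CPM) and highest under DPP (6.20 CPM), whereas ID4 is near 500 CPM in every treated group and 1022 CPM in vehicle.

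ID4, on chromosome 6 (19837370 to 19842197), ran the other way. This family member is abundant in neural progenitors and astrocytes. It averaged 543 ± 25.9 CPM under DEP, 494.95 ± 11.49 under DProP, 516 ± 14.7 under DPP, 522 ± 0.536 under Mix and 1022 ± 98.7 in vehicle (SD, n = 2 each). The 8 treated libraries lay between 487 and 561 CPM, far below the vehicle libraries at 1092 and 952 CPM. The log2 fold change of ID4 was -0.91 ± 0.07 under DEP (edgeR adjusted p = 1.4e-05), -1.05 under DProP (3.86e-06), -0.99 under DPP (3.16e-06) and -0.97 under Mix (8.58e-06). Between treatments the ID4 differences were small: the 95% intervals of the 6 pairs ran from -0.28 to 0.23 on the log2 scale and no pair passed (adjusted p from 0.44 to 0.903).

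Markers of progenitors and astrocytes were lower in treated groups, as ID4 was. Summed markers of neurons, mesenchymal, oligodendrocyte and endothelial cells were lower as well. All 8 progenitor markers fell under each single compound and 7 fell under Mix. Of 8 astrocyte markers, 6 fell under each single compound and 4 under Mix, where 1 rose. Of all tested genes, 13.5%, 17.5%, 19.5% and 10.7% were called lower under DEP, DProP, DPP and Mix, and 9.71% higher under Mix. Summed progenitor markers were 4435 to 4869 CPM in treated libraries and 7492 to 7567 CPM in vehicle, and summed astrocyte markers were 4848 to 5585 CPM in treated libraries and 9195 to 9422 CPM in vehicle. Oligodendrocyte lineage markers summed to 430.8 to 617.6 CPM in treated libraries and 928.7 to 930 CPM in vehicle. Of 7 tested, 2, 1, 1 and 1 were called lower under DEP, DProP, DPP and Mix, and 1 higher under Mix. Endothelial markers summed to 7.253 to 27.44 CPM in treated libraries and 47.45 to 51.49 CPM in vehicle, with 1, 1, 2 and 0 of 5 called lower. In bulk RNA, fewer cells of a type and less RNA per cell cannot be told apart.

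ID2, on chromosome 2 (8682056 to 8684461), is a BMP target that progenitors and young neurons also express by other routes. It had 93.2 and 103 CPM in DEP libraries, 97.4 and 96.1 in DProP, 89.8 and 83.0 in DPP, 117 and 116 in Mix, and 90.2 and 102 in vehicle. Both Mix libraries lay above both vehicle libraries, and the DPP libraries lay below them. ID2 rose under Mix by 0.27 ± 0.07 on the log2 scale (edgeR adjusted p = 0.0229), and the call was lost without Mix library 1 (0.115), without Mix library 2 (0.0713), without vehicle library 1 (0.151), with the GC and length correction (0.0708) and in a fit of these 2 groups alone (0.0518). For the 3 single compounds the adjusted p ran from 0.129 to 0.932. Its pseudogene ID2B had 2 to 7 counts per library and its antisense gene ID2-AS1 0 to 9, so reads shared with them could move few counts.

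Divided by exon length, the 4 ID genes together gave 282 CPM per kilobase under DEP, 264 under DProP, 269 under DPP, 279 under Mix and 482 in vehicle. ID4 made up 82.1% ± 0.364 of that sum under DEP, 80.01% ± 0.613 under DProP, 82.0% ± 1.13 under DPP, 79.7% ± 0.291 under Mix and 90.4% ± 1.56 in vehicle (SD, n = 2 each). The sum therefore followed ID4, and by this measure ID1 was a minor part of it. The libraries were captured with an exome kit, and how well each gene was captured is not known. Levels of different genes, and these shares, therefore compare only roughly. ID1 took 1.07%, 1.53%, 1.87% and 0.738% of the sum under DEP, DProP, DPP and Mix, and 0.162% in vehicle. ID2 took 15.7%, 16.6%, 14.6% and 18.8% of the sum under the same treatments and 9.10% in vehicle. These shares are a description, since ID4 alone sets most of the denominator.

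**Figure D2:**
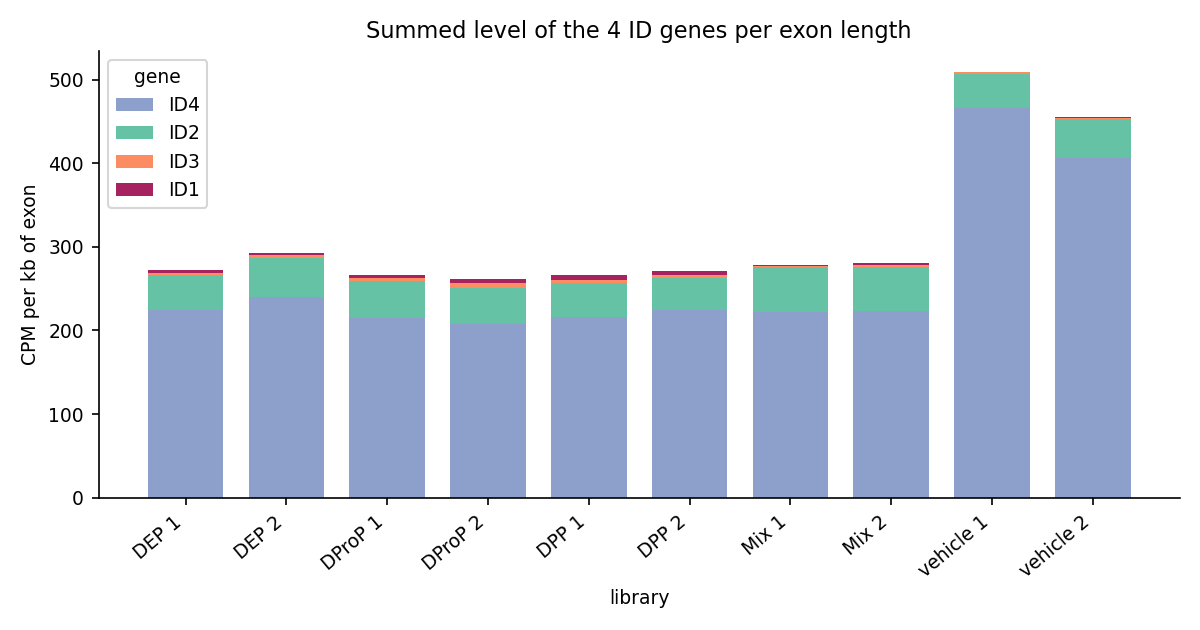
Summed level of the 4 ID genes per library in CPM per kilobase of exon (linear axis from 0), stacked by gene. Group means of the treated groups lie between 264 and 282, below the vehicle mean of 482, and most of the difference is the ID4 segment.

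Among the ligands, BMP4, an early embryonic BMP, was near the lower end of what these libraries measured. It had 1.51 and 1.23 CPM in DEP libraries, 1.08 and 0.943 in DProP, 1.73 and 1.14 in DPP, 0.928 and 0.988 in Mix, and 1.69 and 1.26 in vehicle. The Mix libraries and the DProP libraries lay below both vehicle libraries, and the other groups overlapped vehicle. BMP4 passed in none of the 4 comparisons with vehicle (adjusted p from 0.12 to 0.917), with 95% intervals that reached from -1.21 to 0.53 on the log2 scale.

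BMP7, a ligand made by neural tissue and its surroundings, had 16.8 CPM per kilobase against 0.405 for BMP4 over all libraries. How well the exome kit captured each of these genes is not known. Its libraries had 91.0 and 85.5 CPM under DEP, 94.3 and 91.7 under DProP, 101 and 101 under DPP, 84.2 and 83.7 under Mix, and 80.7 and 96.6 in vehicle. The DPP libraries were the highest and lay above both vehicle libraries. The DPP difference from vehicle was 0.19 on the log2 scale and did not pass (edgeR adjusted p = 0.073), but it passed with library size alone as the scaling (0.00381), with the GC and length correction (0.000777), with a stricter filter of 1 CPM in 2 libraries (0.0245) and among protein-coding genes alone (0.0242). It was 0.065 without vehicle library 1 (adjusted p = 0.519) and 0.33 without vehicle library 2 (0.00655). The antisense gene BMP7-AS1 had no count in any library.

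SMAD6, an inhibitory SMAD specific to the BMP branch, was lower in the treated groups than in vehicle. DEP libraries had 1.94 and 1.71 CPM, DProP libraries 1.91 and 2.31, DPP libraries 1.56 and 1.42, Mix libraries 1.20 and 2.07, and vehicle libraries 2.57 and 2.88. All 8 treated libraries lay below both vehicle libraries. In the edgeR fit the drop passed for DPP alone, at -0.87 ± 0.25 on the log2 scale (edgeR adjusted p = 0.0175), and not for DEP (-0.58, 0.109), DProP (-0.37, 0.277) or Mix (-0.74, 0.0538). That call was lost without DPP library 2 (0.101) and without vehicle library 2 (0.082). The Mix difference passed by limma-voom (0.0416), with a stricter filter of 1 CPM in 2 libraries (0.046) and without Mix library 2 (-1.18, 0.0145), and was -0.40 without Mix library 1.

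SMAD7, an inhibitory SMAD of both the BMP and the TGF-beta branches, had 7.09 and 7.14 CPM under DEP, 7.83 and 6.13 under DProP, 7.10 and 8.34 under DPP, 6.44 and 6.39 under Mix, and 6.37 and 6.27 in vehicle. It passed in none of the comparisons with vehicle (adjusted p from 0.128 to 0.937, 95% intervals from -0.28 to 0.59). Its 0.29 under DPP passed with library size alone (adjusted p = 0.0237) and with the GC and length correction (0.0455). BAMBI, a decoy receptor that lacks a kinase, had 31.7 and 34.1 CPM under DEP, 29.4 and 28.1 under DProP, 31.0 and 26.9 under DPP, 34.3 and 34.8 under Mix, and 28.9 and 31.5 in vehicle. The Mix libraries were its highest pair, and no comparison with vehicle passed (adjusted p from 0.131 to 0.622, intervals from -0.26 to 0.38).

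GREM1, which encodes gremlin, a secreted protein that binds BMPs and keeps them from their receptors, was almost absent and was not tested. It had 0 and 0 counts in DEP libraries, 3 and 0 in DProP, 9 and 6 in DPP, 5 and 5 in Mix, and 29 and 6 in vehicle. A count of 0 allows a level of up to 0.0419 CPM and 0.0424 CPM in the DEP libraries (3 counts per library, counting error only). Without the filter on low counts it was lower in DEP than in vehicle (edgeR adjusted p = 0.0129), and most vehicle counts came from 1 library.

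**Figure D3:**
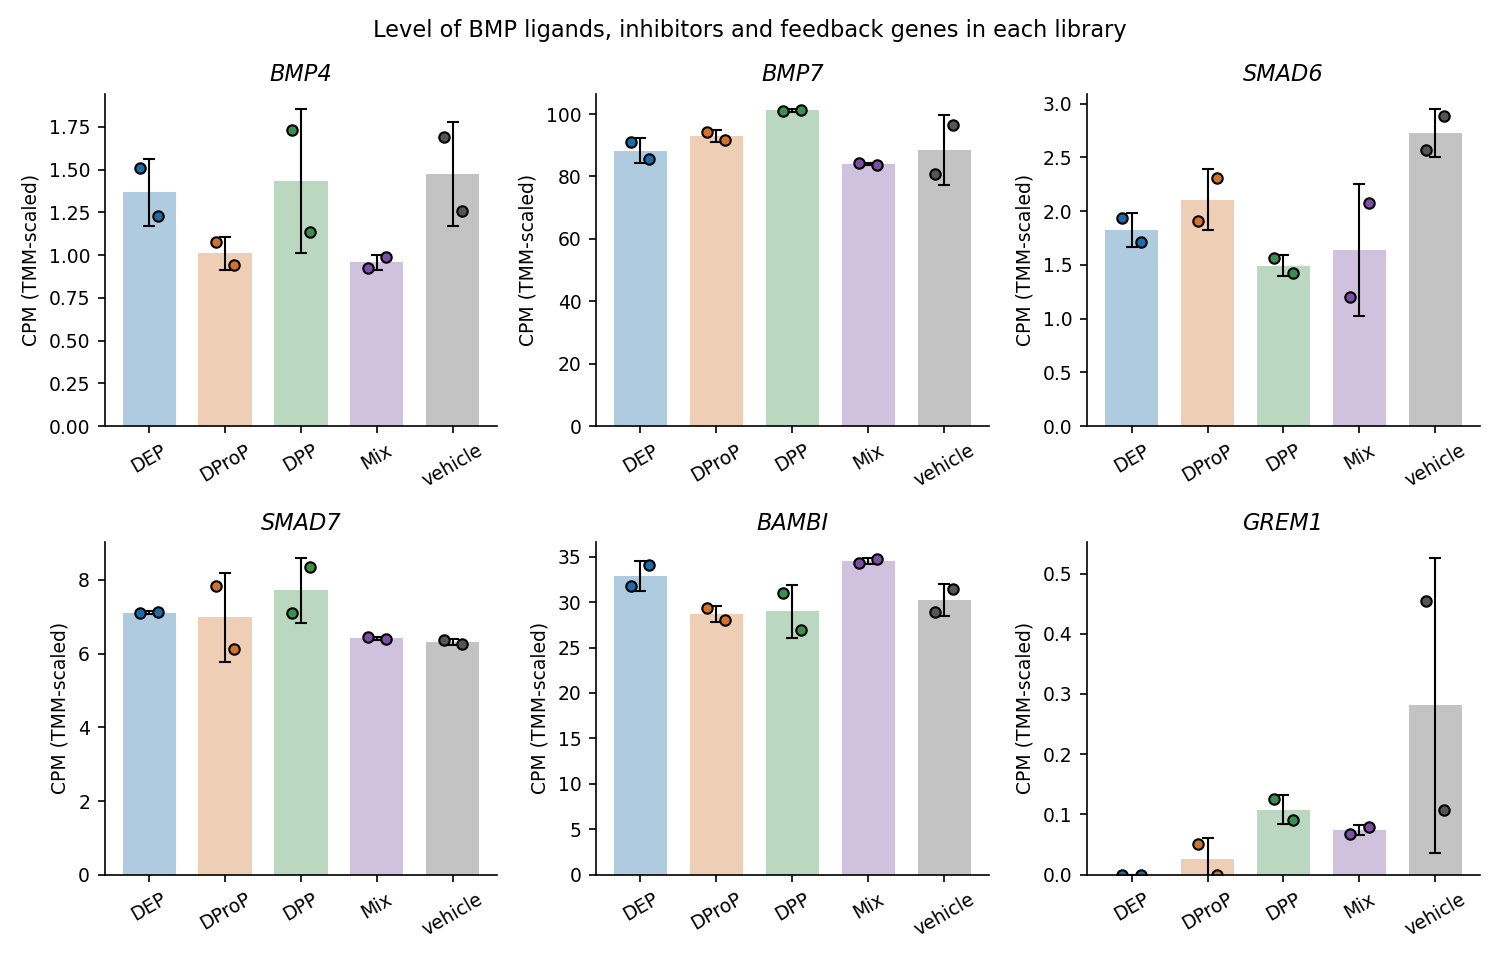
CPM (TMM-scaled, linear axes from 0) of BMP4, BMP7, SMAD6, SMAD7, BAMBI and GREM1 in each library, with bars for the group mean and error bars for the SD of 2 libraries. SMAD6 is highest in both vehicle libraries (2.57 and 2.88 CPM), the groups of BMP7, SMAD7 and BAMBI lie close together, and GREM1 stays below 0.5 CPM.

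Over the tested genes, DEP against vehicle called 3 of 9, with ID1 and ID3 higher and ID4 lower, where 23.6% of all 19465 tested genes were called (10.1% higher and 13.5% lower). DProP against vehicle also called ID1, ID3 and ID4, 3 of 9 in the same directions, where 32.2% of all genes were called (14.7% higher and 17.5% lower). DPP against vehicle called those 3 and SMAD6, 4 of 9 (2 higher and 2 lower), where 36.2% of all genes were called (16.7% higher and 19.5% lower). Mix against vehicle called 3, with ID1 and ID2 higher and ID4 lower, where 20.4% of all genes were called (9.71% higher and 10.7% lower). These shares are near the background and say nothing particular of the 9 genes. The comparisons share the vehicle libraries. The median log2 fold change of the 9 genes was 0.029, 0.011, -0.043 and 0.022 for DEP, DProP, DPP and Mix, against 0.0079, 0.017, 0.017 and 0.017 over all tested genes. With library size alone, which moved the median of all genes up by 0.14 to 0.18, DPP gave 4 higher and 2 lower in place of 2 and 2. The other 3 treatments then gave 3 higher and 1 lower each, where BAMBI joined under DEP and Mix and BMP7 under DProP.

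**Figure D4:**
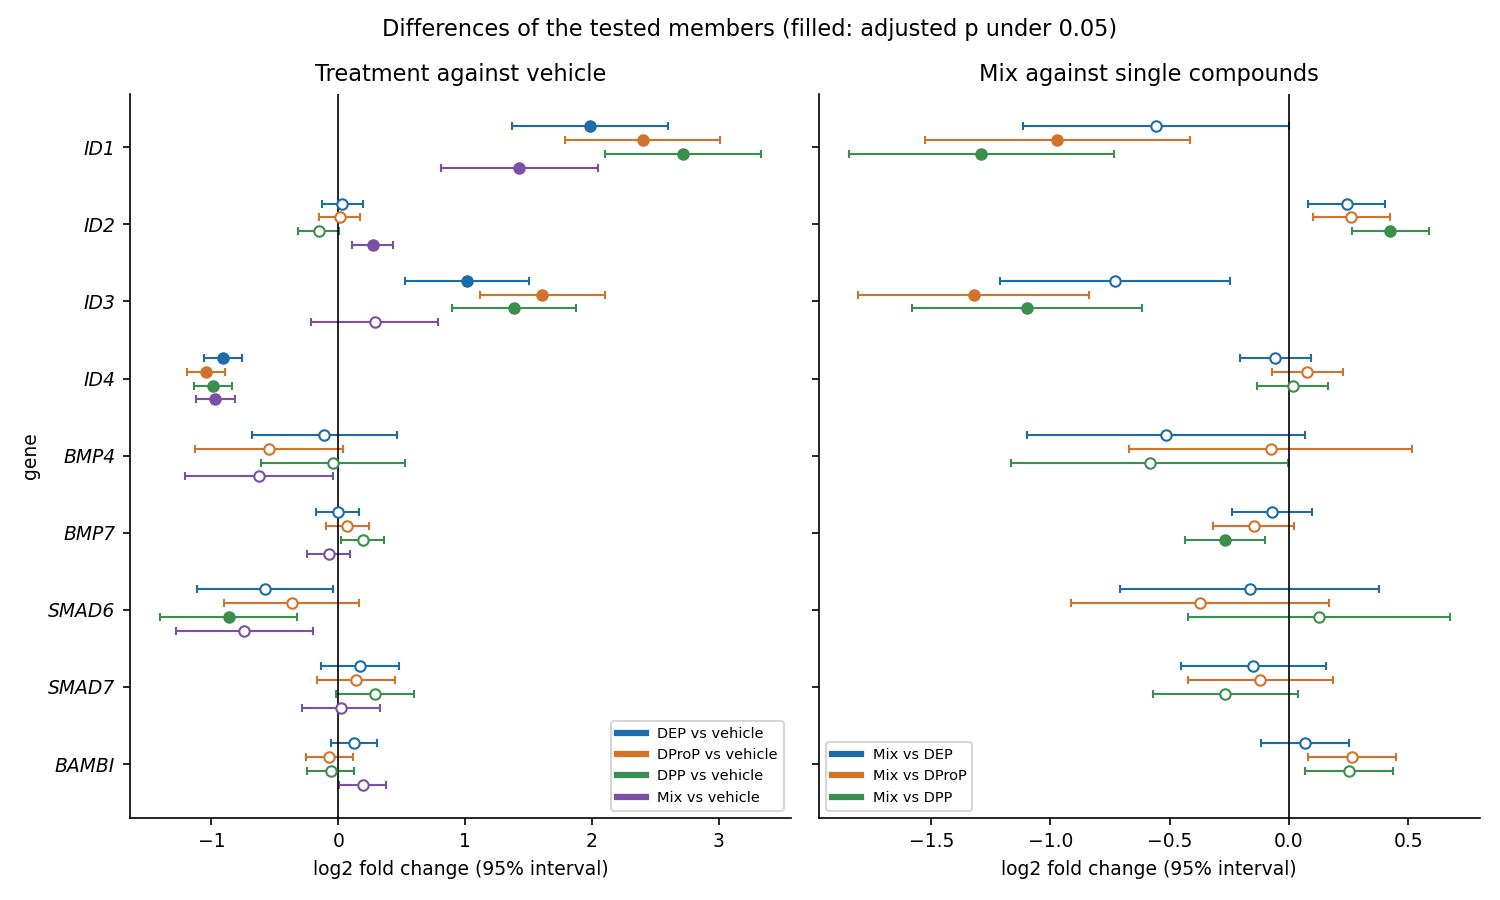
Log2 fold change with its 95% interval of the 9 tested genes, for each treatment against vehicle (left) and for Mix against each single compound (right), where filled points passed an adjusted p of 0.05. In the left panel ID1 lies at 1.43 to 2.72 and ID4 at -1.05 to -0.91 over the 4 treatments. In the right panel ID1 and ID3 lie left of 0.

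The 4 treatments carried the same labelled concentration, and their 6 pairs were compared, with p-values adjusted over all genes within each pair. Among the 3 single compounds none of the 9 tested genes passed by edgeR. DProP against DEP called 0 (0.524% of all genes were called; 2 genes had an unadjusted p under 0.05, and DESeq2 and limma-voom called 0). DPP against DEP called 0 (2.93% of all genes; 3 with an unadjusted p under 0.05, and 0 by both other tools). DPP against DProP called 0 (0.262% of all genes; 1 with an unadjusted p under 0.05, and 0 by both other tools). These counts do not show that the compounds acted alike.

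The group means of ID1 were ordered from DEP through DProP to DPP, with wide intervals on the steps between them. The log2 difference was 0.42 for DProP over DEP (95% interval -0.13 to 0.96, adjusted p = 0.529) and 0.32 for DPP over DProP (-0.22 to 0.86, 0.662). For DPP over DEP it was 0.74 (0.19 to 1.28, adjusted p = 0.153), which passed in a fit of those 2 groups alone (0.01). For ID3 the highest mean was that of DProP: the difference was 0.59 for DProP over DEP (0.13 to 1.06, adjusted p = 0.253), 0.37 for DPP over DEP (-0.10 to 0.84, 0.45) and -0.22 for DPP over DProP (-0.69 to 0.24, 0.736).

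Mix was lower than DPP and DProP in ID1 and ID3. Mix against DPP called 4 of 9, where 17.3% of all genes were called (10.4% higher and 6.82% lower): the log2 difference was -1.29 ± 0.25 for ID1 (edgeR adjusted p = 0.00526), -1.10 ± 0.22 for ID3 (0.00592), -0.27 ± 0.08 for BMP7 (0.0331) and 0.43 ± 0.07 for ID2 (0.00253). The ID1 and ID2 calls held in every alternative run. The ID3 call was lost without Mix library 1 (0.0513), and the BMP7 call without either DEP library (0.0525 and 0.0526), either DPP library (0.0959 and 0.126) or either Mix library (0.121 and 0.137).

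Mix against DProP called 2 of 9, both lower, where 6.89% of all genes were called (4.36% higher and 2.53% lower). The log2 difference was -0.97 ± 0.25 for ID1 (edgeR adjusted p = 0.0421) and -1.32 ± 0.22 for ID3 (0.00523). The ID1 call was lost in the fit of those 2 groups (0.0643) and without any 1 library of DEP (0.0774 and 0.0775), DProP (0.0919 and 0.168) or DPP (0.0501 and 0.0508), or without Mix library 1 (0.267). The ID3 call was lost without Mix library 1 (0.0504). Mix against DEP called 0 of 9 by edgeR, where 3.86% of all genes were called, 2 genes had an unadjusted p under 0.05, limma-voom called 0 and DESeq2 called 2, ID2 higher and ID3 lower. The differences for Mix over DEP were -0.56 for ID1 (95% interval -1.11 to 0.0025, adjusted p = 0.267), -0.73 for ID3 (-1.21 to -0.24, 0.0938) and 0.24 for ID2 (0.082 to 0.40, 0.0927). Without Mix library 1 the ID1 difference was -0.22 and that of ID3 -0.42, and without Mix library 2 they were -0.98 and -1.10, of which ID3 passed (adjusted p = 0.0401). ID2 for Mix over DProP was 0.26 (0.10 to 0.42, adjusted p = 0.0547), which passed by DESeq2 (0.0146), in the fit of those 2 groups (0.0359), with the GC and length correction (0.0461), with the stricter filter (0.0451), among treated libraries alone (0.0382) and without either vehicle library (0.0387 and 0.0388). BAMBI was higher in Mix by 0.069 over DEP (adjusted p = 0.73), 0.27 over DProP (0.086) and 0.25 over DPP (0.0608), none of which passed by edgeR. The difference over DPP passed by DESeq2 (0.0485) and without DPP library 1 (0.0289), and was 0.15 without DPP library 2.

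The rest of the pathway was read from lists chosen by role. Their counts against vehicle stand beside 23.6%, 32.2%, 36.2% and 20.4% of all tested genes called under DEP, DProP, DPP and Mix, of which 13.5%, 17.5%, 19.5% and 10.7% were lower. With library size alone, 31.1%, 38.8%, 41.2% and 28.9% of all tested genes were called, mostly higher. When a library of either compared group was left out, fewer of all tested genes were called as well. List counts from those runs, given below, stand beside these shifts over all genes. Of 13 further BMP ligand genes, 5 were tested and 5 others had no count in any library. BMP6, a ligand known for iron control in liver, had 0.614 and 0.269 CPM in DEP libraries, 0.422 and 0.396 in DProP, 0.670 and 0.727 in DPP, 0.464 and 0.797 in Mix, and 0.250 and 0.288 in vehicle. It rose under DPP by 1.37 ± 0.44 (edgeR adjusted p = 0.0299), lost by DESeq2 (0.0799) and without either DPP library (0.0653 and 0.103) or either vehicle library (0.118 and 0.0774). By edgeR no ligand of the list was called under DEP, DProP or Mix, where 1, 1 and 2 had an unadjusted p under 0.05 and DESeq2 and limma-voom called 0 each. The near-identical BMP8A and BMP8B are uncertain. The median over the 5 was 0.026, 0.41, 0.42 and -0.12 for DEP, DProP, DPP and Mix.

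Among receptors and coreceptors, RGMA was lower under all 4 treatments and RGMB under the single compounds. Of 10 tested, the counts were 0 higher and 4 lower for DEP, 1 and 3 for DProP, 1 and 6 for DPP, and 1 and 1 for Mix, with medians of -0.23, -0.16, -0.31 and 0.021. The DProP and Mix counts are near the share of all genes called. The repulsive guidance molecules, GPI-anchored BMP coreceptors, gave the largest called drops. RGMA averaged 955 ± 46.4 CPM under DEP, 879 ± 36.2 under DProP, 918 ± 51.7 under DPP, 1019 ± 0.245 under Mix and 1462 ± 81.7 in vehicle, and fell in all 4 (-0.62, -0.73, -0.67 and -0.52, adjusted p at most 0.000298). RGMB averaged 243 ± 31.8, 199 ± 5.01, 152 ± 23.7 and 304 ± 21.9 CPM under DEP, DProP, DPP and Mix and 377 ± 10.3 CPM in vehicle, and fell under the single compounds (-0.64, -0.92 and -1.32, adjusted p at most 0.0024). For Mix over DPP it was higher by 1.00 (adjusted p = 0.000222), as was NEO1, the neogenin receptor of these molecules, by 0.48 (0.000163). Against vehicle, NEO1 was called lower under DEP (-0.31, edgeR adjusted p = 0.00195) and under DPP (-0.33). The DPP call held in every alternative run, and the DEP call was lost with library size alone (0.0501). With library size alone the receptor counts became 1 and 2, 2 and 2, 2 and 3, and 5 and 1. For DProP the 4 calls dropped to 2 without either DEP or either DProP library, and for Mix 2 dropped to 1 without Mix library 1 or vehicle library 2.

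Of 8 SMAD transducers and partners, 1 fell under DEP, 1 under DProP and 2 under DPP, and 2 rose under Mix, with medians of -0.13, -0.10, -0.14 and 0.037. These counts are no higher than the share of all genes called, or near it. SMAD1 and SMAD9 were the genes called under Mix, each at 0.28, and correcting for GC and length ended both calls (adjusted p = 0.0635 and 0.164). ZNF423, a zinc finger partner of BMP SMADs, had a log2 fold change of -0.51 under DProP (adjusted p = 0.00321) and -0.49 under DPP (0.00356). With library size alone the counts became 1 higher and 0 lower, 1 and 1, 2 and 1, and 4 and 0. Under DEP the single call went to 0 without DEP library 1 or vehicle library 1 and to 2 without DPP library 1, under DProP to 2 without either vehicle library, and under Mix the 2 went to 0 without Mix library 1 or vehicle library 1 and to 1 without vehicle library 2.

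Among secreted antagonists and modulators, CHRD fell under the single compounds. Of 15 tested, the counts were 0 higher and 5 lower for DEP, 1 and 5 for DProP, 1 and 6 for DPP, and 0 and 4 for Mix. The median over the 13 with a count in every group was -0.33, -0.36, -0.24 and -0.49. BMP1, a protease that cleaves chordin, was called lower under all 4 treatments (-0.32, -0.29, -0.35 and -0.28), and correcting for GC and length ended each call (adjusted p = 0.325, 0.657, 0.177 and 0.217). CHRD, which encodes chordin, had 2.43 and 2.49 CPM under DEP, 2.40 and 2.49 under DProP, 1.66 and 1.74 under DPP, 3.03 and 4.14 under Mix, and 5.15 and 4.88 in vehicle. All its treated libraries lay below both vehicle libraries. The log2 fold change of CHRD was -1.03 under DEP (edgeR adjusted p = 0.00196), -1.04 under DProP (0.00116) and -1.56 under DPP (6.71e-05), while Mix gave -0.49 (0.069). CHRDL1, a further gene of this list, was called lower under all 4 treatments (-0.33, -0.36, -0.46 and -0.60). Its DPP and Mix calls held in every alternative run. Its DEP and DProP calls were lost in some, with library size alone among them (edgeR adjusted p = 0.185 and 0.154).

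Between Mix and DPP, CHRD was higher in Mix by 1.07 (edgeR adjusted p = 0.00217). The 1 gene of the antagonist list called higher under DProP and DPP was CER1, named after its values were seen, which had 0 counts in both vehicle libraries and at most 18 counts in a treated library. With library size alone the counts became 0 and 3, 2 and 3, 3 and 5, and 0 and 2. The DEP count of 5 went to 2 without DEP library 1 or vehicle library 1, and the Mix count of 4 to 1 without Mix library 1.

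Of 12 intracellular inhibitors, the counts were 1 higher and 2 lower for DEP, 1 and 4 for DProP, 2 and 6 for DPP, and 1 and 2 for Mix, with medians of -0.078, -0.055, -0.12 and -0.037. Apart from DPP, these counts are near the share of all genes called. The ubiquitin ligase gene SMURF2, which marks SMADs for breakdown, averaged 42.3 ± 0.848 CPM under DEP, 40.0 ± 0.846 under DProP, 42.1 ± 1.14 under DPP, 39.9 ± 0.2 under Mix and 34.0 ± 0.24 in vehicle. It rose in all 4, by 0.32 (adjusted p = 0.00417), 0.24 (0.0138), 0.31 (0.00261) and 0.23 (0.0217). With the GC and length correction the DProP and Mix calls were lost (0.106 and 0.147). The DProP call was also lost without DProP library 1 (0.0863) or vehicle library 1 (0.0579), and the Mix call in a fit of those 2 groups (0.0782) and without either Mix library (0.103 and 0.0645) or either vehicle library (0.0807 and 0.0693). TOB1, which encodes an antiproliferative protein that binds SMADs, was lower in all 4 (-0.27, -0.35, -0.23 and -0.26, adjusted p at most 0.0253), and each of these calls was lost with library size alone. CTDSP1, a phosphatase gene, was called lower under DProP, DPP and Mix and lost each call with the GC and length correction (0.344, 0.562 and 0.994). The direction of this list depends on the scaling, as did that of all genes. Library size alone gave 4 higher and 0 lower, 3 and 0, 4 and 1, and 4 and 0 in the list. Over all 19465 tested genes it gave 4794 higher and 1259 lower for DEP and 5850 and 1699 for DProP. For DPP it gave 5820 and 2200, and for Mix 4605 and 1020. Without 1 library the counts went to 1 for DEP (DEP library 1 or vehicle library 1), 3 for DProP (either DProP library or vehicle library 1), 3 or 4 for DPP (DPP library 2 or vehicle library 2) and 0 or 1 for Mix (either vehicle or either Mix library).

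Among other BMP targets, the smooth muscle genes TAGLN and ACTA2 fell under all 4 treatments. Of 11 tested, the counts were 0 higher and 4 lower for DEP, 1 and 2 for DProP, 0 and 2 for DPP, and 1 and 3 for Mix, with medians of -0.26, -0.026, -0.28 and -0.17. Under DProP and DPP these counts are no higher than the share of all genes called. Other genes of the list did not share that pattern. RUNX2 was lower under DEP (-0.41, edgeR adjusted p = 0.00853) and higher under Mix (0.34, 0.0219). HEY1 was called lower under Mix alone (-0.52, 0.00704). Each RUNX2 call was lost in 4 of 20 alternative runs, and that of HEY1 in 1. TAGLN, an actin-binding protein gene of smooth muscle, had 4.87 and 4.78 CPM under DEP, 4.51 and 4.21 under DProP, 3.78 and 3.24 under DPP, 5.19 and 6.17 under Mix, and 21.2 and 20.6 in vehicle. Its log2 fold change was -2.11, -2.26, -2.57 and -1.88 (edgeR adjusted p at most 6.75e-06), and that of the smooth muscle actin gene ACTA2 was -1.52, -1.74, -1.73 and -1.60 (at most 3.1e-05). Both genes also stand in the list of mesenchymal and smooth muscle markers, whose sum was 76.7 to 102.6 CPM in treated libraries and 178.9 to 180.6 CPM in vehicle, and the part of such cells in the result was not tested. The counts of 4 went to 2 without either DEP library or vehicle library 1 for DEP, and without Mix library 1 for Mix. With library size alone the counts became 1 and 3, 2 and 2, 2 and 2, and 1 and 3.

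The bHLH genes, with those of E proteins and proneural factors among them, were mostly lower under the single compounds. Of 16 tested, 12 fell under DEP, 13 under DProP, 13 under DPP and 3 under Mix, where 13.5%, 17.5%, 19.5% and 10.7% of all tested genes fell. The Mix count is close to that share. Their medians were -0.40, -0.71, -0.75 and -0.25, against 0.0079 to 0.017 over all genes. NEUROD1, a proneural factor, had 5.26 and 6.52 CPM under DEP, 5.38 and 4.26 under DProP, 3.10 and 2.60 under DPP, 13.5 and 12.6 under Mix, and 14.1 and 11.8 in vehicle. The Mix libraries lay between the vehicle libraries, whereas the single compounds lay far below them. The log2 fold change of NEUROD1 was -1.14 under DEP (edgeR adjusted p = 0.000553), -1.43 under DProP (7.64e-05) and -2.18 under DPP (4.21e-06), while Mix gave 0.009 (0.979).

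NHLH2, another neuronal bHLH gene, averaged 13.4 ± 0.0192, 9.43 ± 2.17, 5.23 ± 0.714 and 16.8 ± 1.66 CPM under DEP, DProP, DPP and Mix, and 21.2 ± 2.52 CPM in vehicle. Its log2 fold change was -0.66 under DEP (edgeR adjusted p = 0.0102), a call lost without either DEP library (0.0726 and 0.0686) or vehicle library 1 (0.0751), -1.17 under DProP (adjusted p = 0.000263) and -2.02 under DPP (6.56e-06). The E protein genes TCF12 and TCF4, whose products pair with proneural factors, fell under all 4 treatments. Their log2 fold changes were -0.39 and -0.36 under DEP, -0.40 and -0.42 under DProP and -0.53 and -0.46 under DPP (adjusted p at most 0.00253), and -0.31 (0.00798) and -0.25 (0.0174) under Mix. Both Mix calls were lost with library size alone (0.0817 and 0.22), that of TCF12 also without Mix library 1 (0.0607), and that of TCF4 without Mix library 2 (0.12) or vehicle library 1 (0.116) and in a fit of those 2 groups (0.05). For Mix over DPP, 10 of the 16 were called higher, where 10.4% of all tested genes were. Among them were NEUROD1 at 2.19 (edgeR adjusted p = 2.04e-05) and NHLH2 at 1.69 (6.7e-05). Of these genes HES1 is also a progenitor marker, and OLIG1 and OLIG2 are also oligodendrocyte markers. Neuron markers fell with the list, 5 of 9 under DEP, 7 under DProP, 7 under DPP and 2 under Mix (1 rose under DPP and 1 under Mix), and summed to 1357 to 1494, 1205 to 1275, 1077 to 1189 and 1672 to 1698 CPM under DEP, DProP, DPP and Mix, and 2012 to 2087 CPM in vehicle. Their part in the result was not tested. The DEP count went to 5 without either DEP library, 7 without vehicle library 1 and 6 without vehicle library 2, and the Mix count to 1 without Mix library 1. With library size alone the Mix counts became 1 higher and 1 lower.

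**Figure D5:**
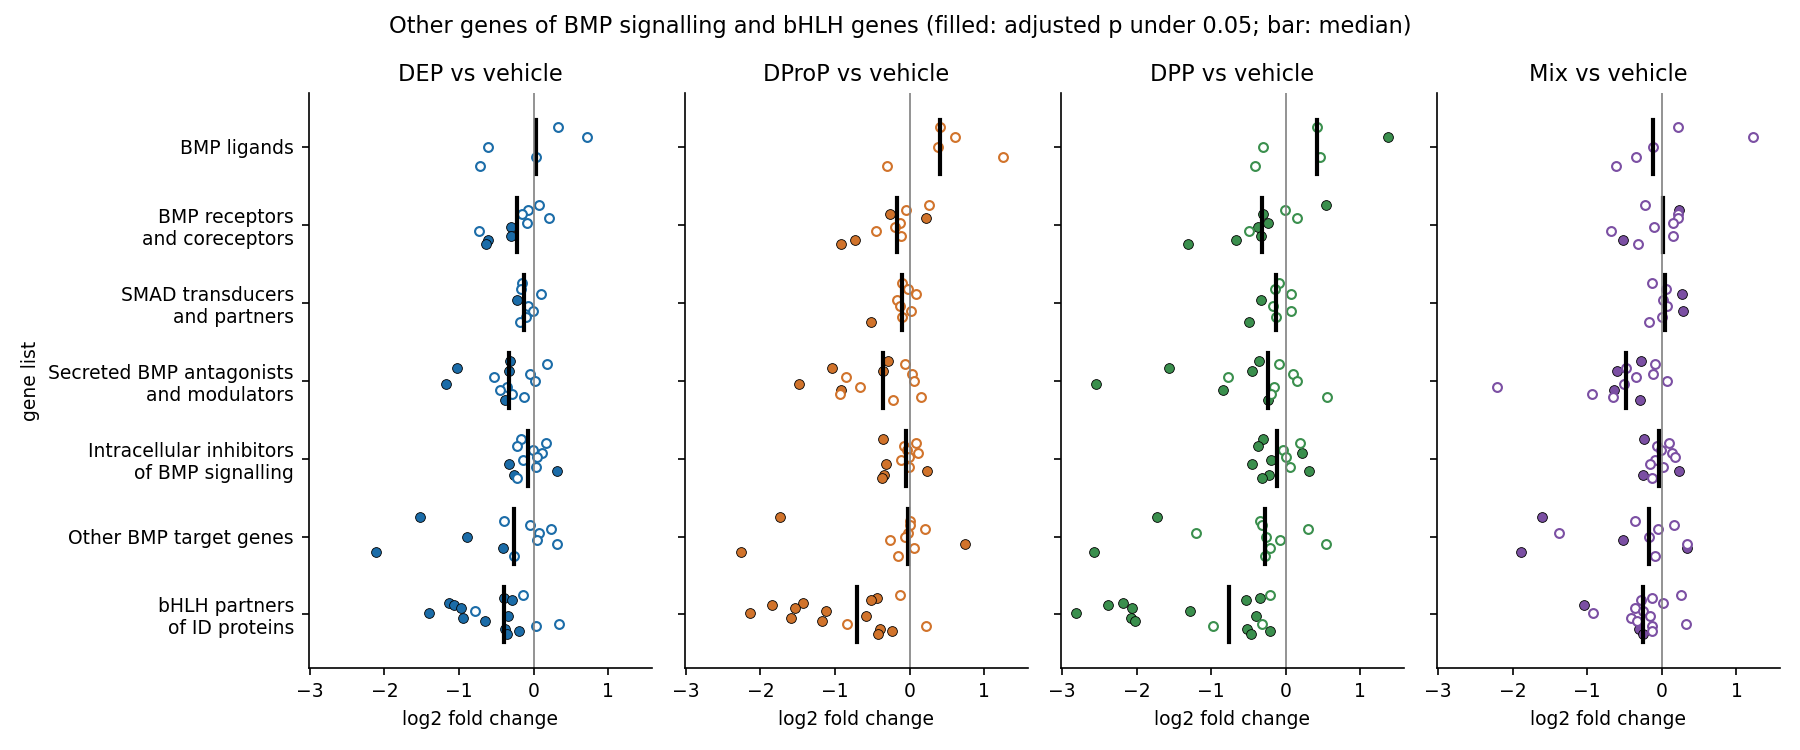
Log2 fold change against vehicle of each tested gene of the 7 lists, where filled points passed an adjusted p of 0.05 and the bar is the list median; FST and CER1, with no count in 1 or more groups, are left out. The bHLH genes reach the lowest values under DPP, with a median of -0.75, against -0.25 under Mix.

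Genes with patterns most like those of the ID genes were ranked by the root mean square difference of log2 CPM, each centred on its own mean, over the 10 libraries. Of 14198 genes searched, SOCS1, a suppressor of cytokine signalling, was nearest to ID1 at 0.198, against an SD of 1.05 of ID1 itself over the libraries. SOCS1 averaged 3.60 ± 0.174 CPM under DEP, 3.46 ± 0.00185 under DProP, 4.97 ± 0.678 under DPP, 2.25 ± 0.87 under Mix and 0.763 ± 0.194 in vehicle. The long non-coding RNAs MIR4435-2HG (0.229) and LINC01004 (0.240) came next. Nearest to ID3 were POLQ (0.226), TICRR (0.228) and OIP5 (0.230), against an SD of 0.689. POLQ, a DNA polymerase of end joining, averaged 5.73 ± 0.124 CPM under DEP, 10.45 ± 4.04 under DProP, 8.65 ± 1.64 under DPP, 4.76 ± 0.52 under Mix and 3.57 ± 0.262 in vehicle.

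Nearest to ID4 were RCN2, PPP1CB and GPM6A, each within 0.0659 on the same measure against an SD of 0.417. GPM6A, a membrane glycoprotein of neurons, averaged 909 ± 4.94 CPM under DEP, 863 ± 47.9 under DProP, 948 ± 23.5 under DPP, 877 ± 41.9 under Mix and 1697 ± 196 in vehicle. Nearest to ID2 was GNPAT at 0.051 against an SD of 0.157, and nearest to SMAD6 was GBX2, a homeobox gene, at 0.122 against 0.382. These rankings describe the 10 libraries, in which the groups set most of the variation.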

How the data were processed

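RNA from 10 libraries in 5 groups of 2 was captured with an exome kit (SureSelect RNA Direct), per the labels' protocols. The authors deposited 1 table of raw counts, with a row per NCBI gene identifier and no normalisation. Per the submitters' processing notes, the build was GRCh38 and the tools included HISAT2 2.1.0 and StringTie 2.1.3b, with Trimmomatic 0.38 and edgeR 4.0.9 also listed. The counting tool, strand setting and handling of shared reads are not given there.

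The counts were tested with edgeR 4.0.16 (R 4.3.3). Of 46427 genes, 19465 passed a filter on low counts by group (filterByExpr, minimum count 10). The quasi-likelihood model (robust, TMM factors) gave each group 1 mean over all 10 libraries, which leaves 5 residual degrees of freedom. P-values of 10 comparisons were adjusted by Benjamini and Hochberg over all tested genes, with a threshold of 0.05. The common biological coefficient of variation was 9.40%. Exon lengths come from GENCODE. The members and lists were chosen with earlier results of these data known. Genes of a list were named by the smallest p-values against vehicle, up to 4 a list; the text gives some of them. 1 gene of the lists is not reported here. Alternatives were DESeq2 1.42.0, limma-voom of limma 3.58.1, other scalings, filters and samples, a correction for GC content and length, a replicate block and leaving out each library.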

Additional observations from a re-analysis of the deposited data

How the results depend on the processing

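Of 19 called values of the 9 tested genes, 12 were called in every alternative run and 7 were lost in at least 1, and no called value changed sign. With the replicate number as a block, the counts called were the same in all 10 comparisons: 3, 3, 4 and 3 for DEP, DProP, DPP and Mix against vehicle, 0 in DProP, DPP and Mix against DEP and in DPP against DProP, 2 in Mix against DProP and 4 in Mix against DPP. The block changed no call of the 9 genes. Same-numbered libraries showed no shared deviation, with correlations between -0.0465 and 0.0471 over 10 pairs of groups. These correlations cannot tell how the libraries were prepared.

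Mix against DEP called 2 by DESeq2 (ID2 and ID3), 1 in the fit of these 2 groups alone (ID2) and 1 among protein-coding genes alone (ID3, an alternative chosen after seeing the data). DPP against DEP called 1 in the fit of 2 groups alone (ID1). DPP against vehicle called 7 with the GC and length correction, ID2 lower and BMP7 and SMAD7 higher being added. Leaving out 1 library gave 0 to 1 in Mix against DEP, 0 to 3 in Mix against DProP, 2 to 4 in Mix against DPP, 2 to 4 in DEP, 3 to 4 in DProP, 3 to 5 in DPP and 2 to 3 in Mix against vehicle. In some of these fits GREM1 passed the filter and was called lower than in vehicle, in DEP when a DProP, DPP or Mix library was left out and in DProP without vehicle library 2. ID3 in Mix against vehicle, which was not called, ran from -0.087 (without Mix library 2, a change of sign) to 0.59 (without Mix library 1). The cause of these changes was not tested. Of 28 counts of list genes called against vehicle, 21 moved by over 1.5 times in at least 1 alternative.

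Levels under 3 CPM (BMP4, SMAD6, GREM1, ID1 in vehicle and Mix, ID3 in vehicle) rest on few counts. Where a library was left out, the lone library was assumed to vary like the other groups.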
